A study of Mus musculus with 4 samples.

Results

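The genes described here are a set of 40 names from glycolysis and the hypoxia response, and they were chosen as the probes whose gene name on the array design is one of those names. Of the 40 names, 39 were found, on 67 probes and 76 spots, among 30163 genes, 39408 probes and 43020 spots in all. The name left over, Ero1a, is the current symbol of a gene that the array design lists under its older name Ero1l, and Pkm2 is likewise the older name of Pkm. The set holds 23 genes with 1 probe, 10 with 2 probes, 4 with 3 probes, 1 with 4 probes (Bnip3l) and 1 with 8 probes (Gapdh).

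The study concerned acetylcholine of non-neuronal origin and Lgr5-positive stem cells in the mouse intestine. Total RNA of 4 samples was measured on 1-colour Agilent expression arrays: o-organoid, y-organoid, crypt and whole intestine, with 1 array for each. All 4 samples were described as wild type mice of strain C57/BL6, and neither a treatment nor an age was stated. Both organoid samples carry the source name crypt-villus organoid, a culture in which epithelium isolated from crypts grows into a closed structure with buds, and the labels do not say what y and o stand for. The o-organoid labelling started from 40 ng of RNA and the other 3 from 20 ng each. How many animals or cultures stand behind an array was not given in the sources used here, so every difference below is a difference between 2 arrays, has no replicate check and carries no p-value.

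Glycolysis splits glucose into pyruvate in the cytosol and yields ATP without oxygen, provided that pyruvate is turned into lactate and the lactate leaves the cell. When oxygen is scarce, the prolyl hydroxylases that mark the transcription factor HIF-1 for destruction slow down, and HIF-1 then switches on glucose transporters, glycolytic enzymes, vascular growth factors, mitophagy receptors and collagen-modifying enzymes. In the intestine the epithelium lies along a steep oxygen gradient between the blood supply and the lumen.

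Signals are given on the log2 scale relative to the 75th percentile of each array, so that 0 is the 75th percentile and a difference of 1 is 2-fold. A gene was read by its brightest probe, and signals of different genes cannot be set against each other because probes differ in efficiency. Repeated spots of a probe gave a technical SD between 0.134 and 0.159 for a difference between 2 arrays, and dim probes scattered more. Between 51.9% and 58.7% of the spots of an array were well above background, and no spot was saturated. The labels were checked against marker genes: all 7 epithelial markers were above background on every array, and Lgr5, which marks crypt stem cells, had signals of 2.32 on the o-organoid and 2.85 on the y-organoid array, against -0.39 on the crypt array and -1.75 on the intestine array. None of 6 stromal markers was above background on the o-organoid, y-organoid and crypt arrays, against all 6 on the intestine array. Other non-epithelial lists were not absent there. Of 6 immune markers 4 were above background on o-organoid, 3 on y-organoid, 5 on crypt and 6 on intestine. Of 5 endothelial markers 3 were above background on o-organoid, y-organoid and crypt alike, and 4 on intestine. The source of these signals was not tested. The summed signal of 5 pancreatic acinar markers, on the log2 scale, was 0.36 on the o-organoid, -0.14 on the y-organoid and -1.01 on the crypt array, against 12.14 on the intestine array, so the intestine sample held RNA of other tissues besides epithelium.

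Most of the set was higher on the organoid arrays than on the crypt array. At a threshold of 2-fold, 22 of 37 measured members were higher and 1 was lower on the o-organoid array than on the crypt array, whereas 8.52% of all 17210 genes measured in that pair were higher and 13.6% were lower. On the y-organoid array 19 of 37 members were higher and 1 was lower than on the crypt array, against 18.5% and 13.3% of 17207 genes. The median difference was 1.11 over the members and 0.0 over all genes for o-organoid minus crypt, and 1.02 over the members and 0.15 over all genes for y-organoid minus crypt. At 4-fold 9 of 37 members were higher on the o-organoid array, against 1.77% of genes, and 9 of 37 on the y-organoid array, against 4.82%. None of the 37 was lower by 4-fold, against 4.4% of genes for o-organoid and 4.28% for y-organoid. In the authors' deposited value table, scaled to the median of each array, the y-organoid minus crypt median was 0.51 for the members and -0.35 for all genes. The member that was lower in both was Pfkfb4. In such bulk samples a larger share of cells that express a gene and more RNA per cell cannot be told apart. The enterocyte markers moved with these differences, as 7 of 8 on o-organoid and 8 of 8 on y-organoid were below crypt by 2-fold or more, and of 5 stem cell markers 4 on o-organoid and 5 on y-organoid were above crypt by 2-fold or more. Their part in the results was not tested.

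**Figure D1:**
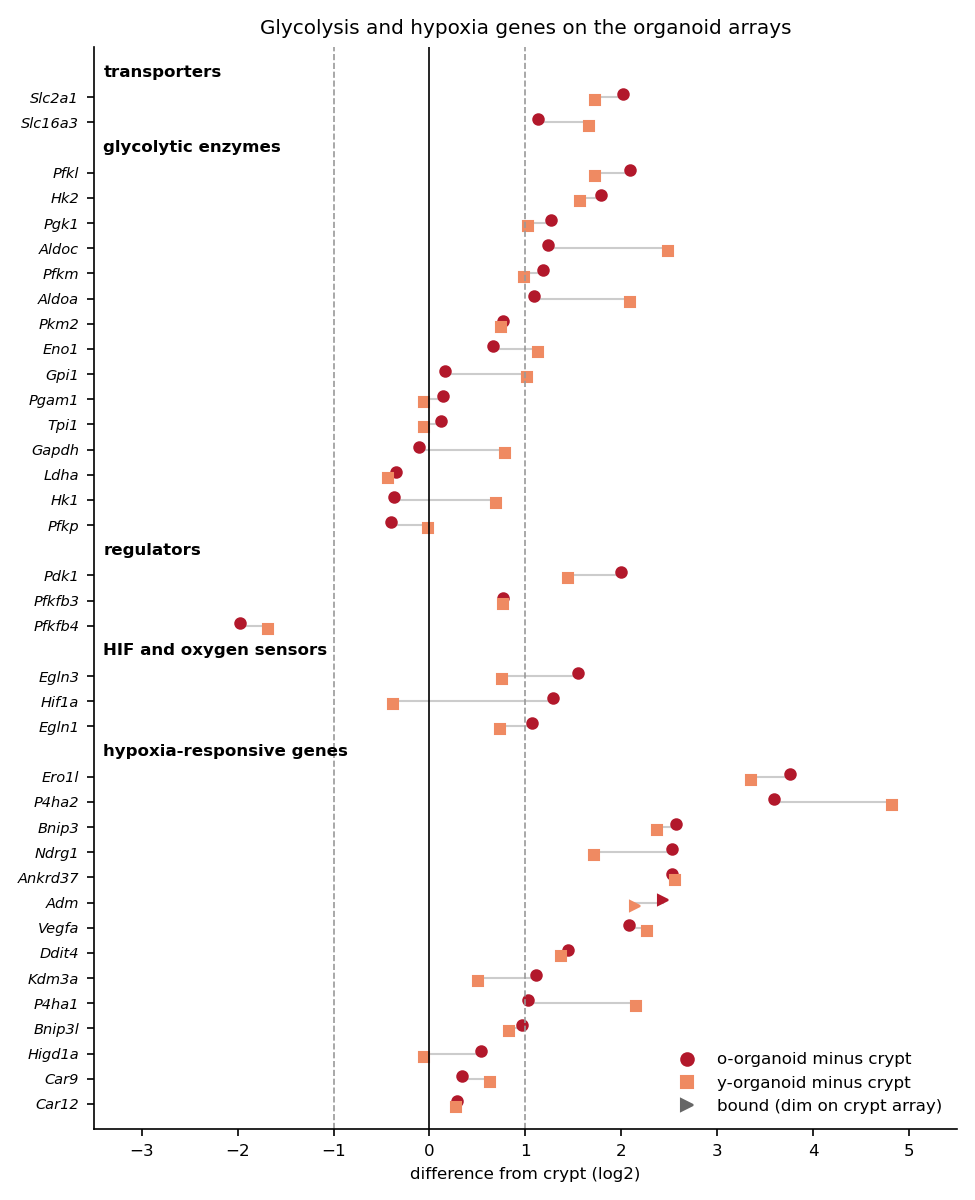
Difference of each member between an organoid array and the crypt array, on the log2 scale, with the o-organoid and the y-organoid value as separate points and triangles for lower bounds. Ero1l and P4ha2 lie farthest to the higher side on both, and Pfkfb4 is the member that lies beyond 2-fold on the lower side on both.

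**Figure D2:**
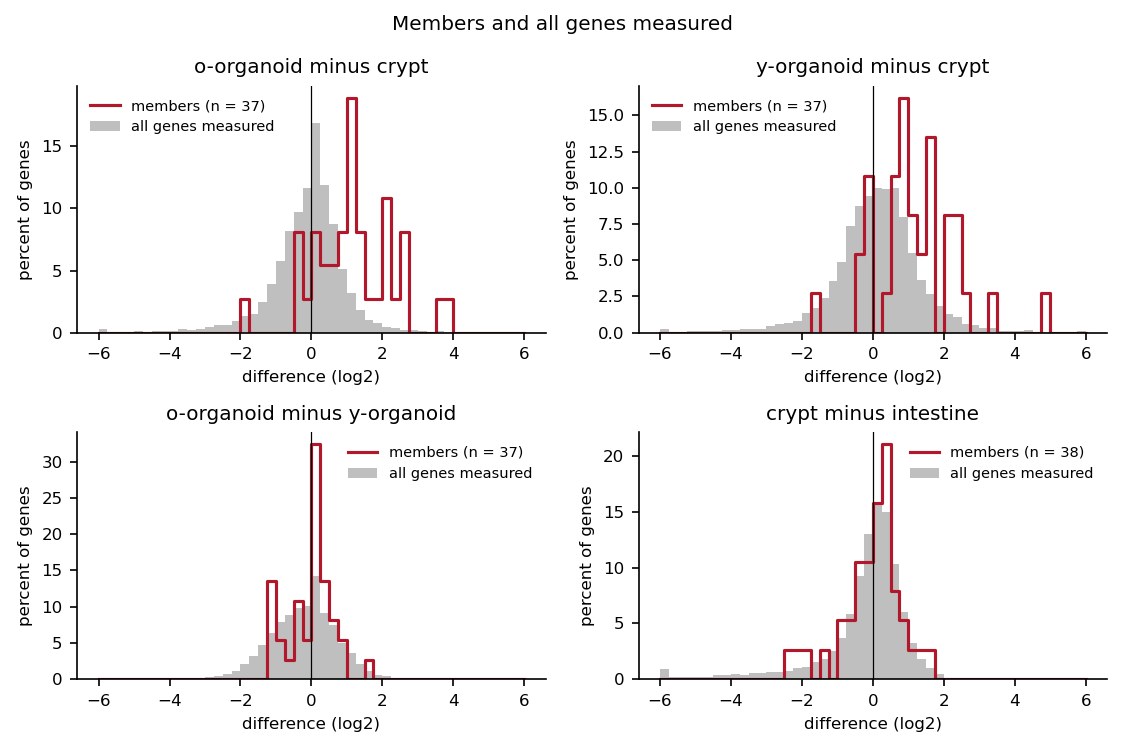
Distribution of differences over all measured genes and over the members, as a percentage of genes in each bin of the log2 difference, with values beyond the axis collected in the outermost bins. The members are shifted to the higher side against crypt, with medians of 1.11 for o-organoid and 1.02 for y-organoid, and lie closer to all genes for o-organoid minus y-organoid and for crypt minus intestine.

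Of the 39 genes, 36 were well above background on all 4 arrays, Adm on 3, Eno2 on 1 and Mxi1 on 0. Eno2, the neuronal enolase, was well above background only on the intestine array, and Mxi1, a repressor that competes with Myc for its partner Max, was not well above background on any array. They therefore have no value against crypt. Adm, which encodes the vasodilator peptide adrenomedullin, was dim in crypt, not well above background there, and is given by bounds. It enters the comparisons with crypt through the organoid arrays alone.

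A stricter pattern singles out part of the set. Both organoid signals were at least 2-fold above both tissue signals for 13 of 38 members, against 2.96% of 19432 genes. These members were Slc2a1, Hk2, Pfkl, Aldoa, Pgk1, Pdk1, Vegfa, Ero1l, Ndrg1, Bnip3, Ankrd37, Ddit4 and P4ha2. The other probe of Vegfa did not meet the pattern, with 0.31 on o-organoid against -0.18 on intestine. Conversely, less bright probes of Egln3 and Hk1, which are not among these members, did meet the pattern. The Egln3 probe had 0.69 on y-organoid against -0.86 on crypt, and the Hk1 probe -1.91 on o-organoid against -2.98 on intestine. Pgk1 met it with a gap of 1.03 on a probe placed on another chromosome than its gene. Without such probes 12 members met it. In the deposited value table Pgk1, Pdk1 and Ddit4 were less than 2-fold above crypt on y-organoid, by 0.52, 0.93 and 0.86. Slc16a3 and Aldoc met the pattern in that table, and 12 of 38 members met it there in all. At a threshold of 4-fold 2 members, Ero1l and Ankrd37, met the pattern, against 0.468% of genes. Both organoid arrays stood above both tissue arrays, by any margin, for 25 of 38 members and for 25.8% of genes.

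The signals of both transporter genes of the set were higher on both organoid arrays than on crypt. Slc2a1, the glucose transporter GLUT1 of most cells, had signals of 2.04 on the o-organoid and 1.75 on the y-organoid array, against 0.02 on crypt and -0.42 on intestine. Its probe lies at chr4:118809864-118809923 of build mm9, and the difference against crypt was 4.06-fold for o-organoid and 3.32-fold for y-organoid. The 2 organoid signals were close and the 2 tissue signals were close, with a wide gap between the pairs. Slc16a3, the lactate exporter MCT4, was higher than crypt by 1.13 on o-organoid and by 1.66 on y-organoid, and both of its probes, which overlap, gave like values.

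The enzymes that commit glucose to glycolysis differed between isozymes. Hk2, the inducible hexokinase that phosphorylates glucose at the mitochondrial surface, had signals of 0.51 on o-organoid and 0.29 on y-organoid, against -1.28 on crypt and -1.50 on intestine. The difference to crypt was 3.46-fold for o-organoid and 2.96-fold for y-organoid. Pfkl, the liver-type phosphofructokinase that sets the pace of the pathway, stood at 2.76 on o-organoid and 2.40 on y-organoid, against 0.67 on crypt and -0.35 on intestine, and the difference to crypt was 4.27-fold for o-organoid and 3.33-fold for y-organoid. The muscle-type Pfkm had 1.07 on o-organoid and 0.88 on y-organoid, against -0.11 on crypt and -0.43 on intestine, so that its difference to crypt was 1.18 for o-organoid and 0.99 for y-organoid. The platelet-type Pfkp showed no such gap: 2.16 on o-organoid and 2.55 on y-organoid, against 2.56 on crypt and 2.19 on intestine.

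Hk1, the housekeeping hexokinase, was read differently by its 3 probes. Its brightest probe had 6.84 on o-organoid and 7.90 on y-organoid, against 7.21 on crypt and 6.93 on intestine, a difference to crypt of -0.37 for o-organoid and of 0.69 for y-organoid. The other 2 probes were higher on both organoid arrays than on crypt, by 2.58 and 1.89 for o-organoid and by 4.34 and 1.91 for y-organoid. The direction for Hk1 on the o-organoid array therefore changes with the probe that is read.

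Both aldolases were higher than crypt on both organoid arrays. Aldoa, the muscle-type aldolase that is also the common isozyme of dividing cells, had 8.10 on o-organoid and 9.10 on y-organoid, against 7.01 on crypt and 6.81 on intestine, a difference to crypt of 1.09 for o-organoid and of 2.09 for y-organoid. Aldoc, the brain-type aldolase, stood at 3.47 on o-organoid and 4.72 on y-organoid, against 2.23 on crypt and 2.52 on intestine, and its difference to crypt was 1.24 for o-organoid and 2.49 for y-organoid. For both aldolases the y-organoid signal was the highest of the 4.

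Gapdh, Eno1, Pkm2 and Ldha, which catalyse the later steps, differed less. Gapdh, the glyceraldehyde phosphate dehydrogenase, had 8.06 on o-organoid and 8.96 on y-organoid, against 8.17 on crypt and 8.13 on intestine. Over its 8 probes the difference to crypt ran between -0.11 and 1.07 for o-organoid and between -0.29 and 0.92 for y-organoid. The median of its probes gave 0.81 for o-organoid and 0.41 for y-organoid. The brightest probe of Gapdh is placed on chromosome 7 of build mm9 although the gene lies on chromosome 6, and it shares at least 40 bases with a probe of another name, so its value is uncertain as one of Gapdh.

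Eno1, the common enolase, whose probe shares bases with that of a copy named Gm5506, had 6.95 on o-organoid and 7.42 on y-organoid, against 6.28 on crypt and 5.98 on intestine. Pkm2, pyruvate kinase M, had 6.14 on o-organoid and 6.12 on y-organoid, against 5.37 on crypt and 5.45 on intestine, a difference to crypt of 0.77 for o-organoid and of 0.75 for y-organoid. Pgk1, phosphoglycerate kinase, was higher than crypt by 1.27 on o-organoid and by 1.03 on y-organoid. Its only probe is placed on chromosome 3 while the gene lies on chromosome X, and its value is uncertain for that reason. Gpi1, the isomerase after hexokinase, was higher than crypt by 0.16 on o-organoid and by 1.02 on y-organoid. Tpi1, the triose phosphate isomerase, differed from crypt by 0.12 on o-organoid and by -0.06 on y-organoid, and its other probe by 0.14 and -0.80 on the same arrays. Pgam1, the phosphoglycerate mutase, differed by 0.14 on o-organoid and by -0.06 on y-organoid.

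Ldha, the subunit of lactate dehydrogenase that favours lactate formation, was not higher on the organoid arrays by its brightest probe. It had 7.87 on o-organoid and 7.78 on y-organoid, against 8.22 on crypt and 7.90 on intestine. The other probes of Ldha gave 0.22 and 0.18 for o-organoid minus crypt and 0.34 and -1.67 for y-organoid minus crypt. Of the measured enzymes, 6 of 15 were at least 2-fold higher than crypt on o-organoid, against 8.52% of all genes. On y-organoid 7 of 15 were, against 18.5% of all genes. The median was 0.66 for o-organoid and 0.99 for y-organoid. On both arrays 0 were lower, against 13.6% of genes for o-organoid and 13.3% for y-organoid. In the deposited value table Gpi1, Pgk1 and Eno1 fell below 2-fold on y-organoid, to 0.51, 0.52 and 0.62.

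The regulators of the pathway went in opposite directions. Pdk1, the kinase that turns off pyruvate dehydrogenase and keeps pyruvate out of the mitochondria, was 3.99-fold higher than crypt on o-organoid and 2.72-fold higher on y-organoid. Pfkfb4, whose product sets the level of an allosteric activator of phosphofructokinase, was 3.94-fold lower than crypt on o-organoid and 3.20-fold lower on y-organoid. Pfkfb3, another enzyme of that kind, was higher by 0.77 on both organoid arrays, and its signal on the intestine array, 0.55, was above them.

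**Figure D3:**
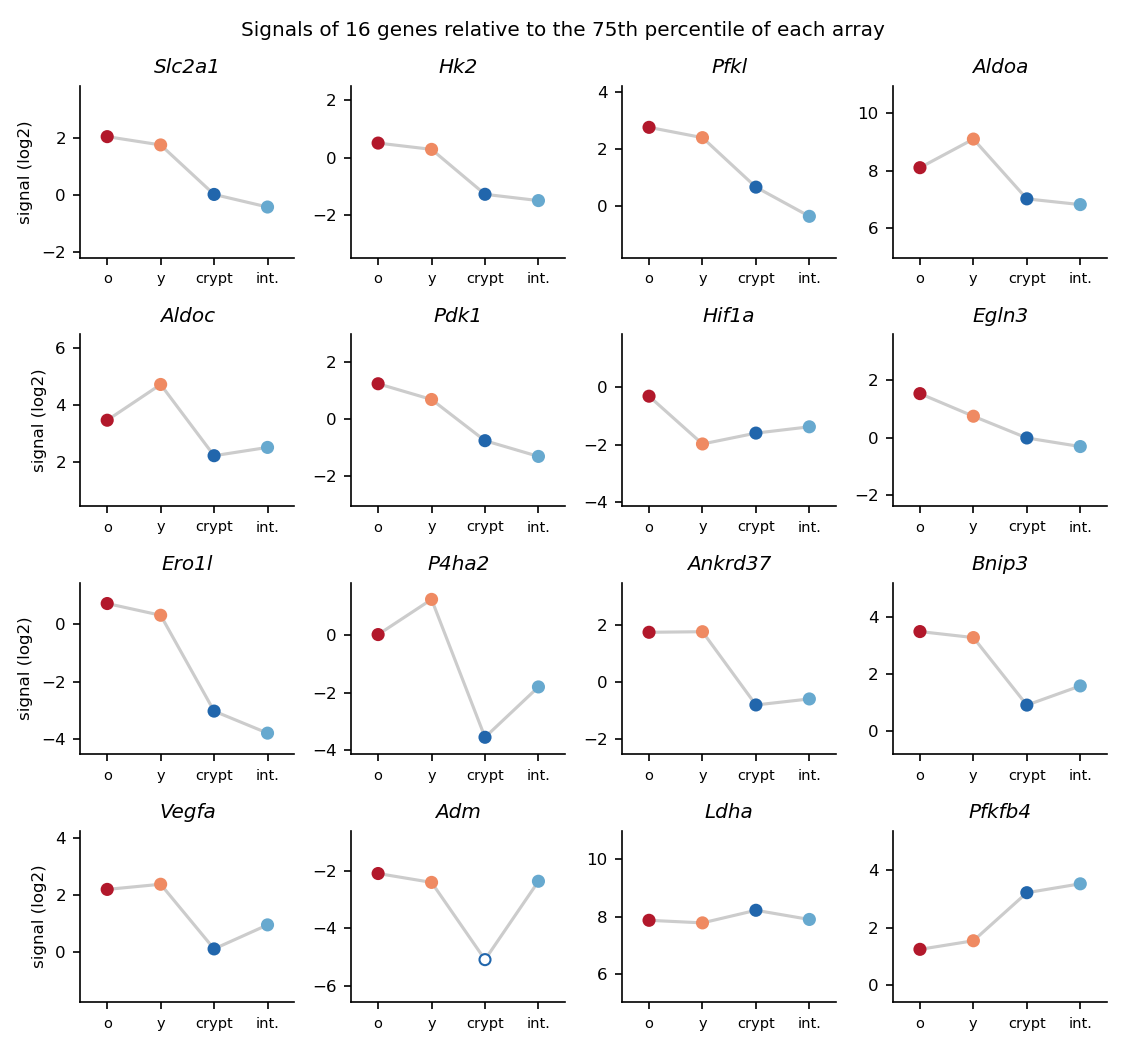
Signals of 16 members on the 4 arrays, on the log2 scale relative to the 75th percentile of each array, with 1 point for each array and an open point where the probe was not well above background. For Slc2a1, Pfkl, Ero1l and Ankrd37 both organoid points lie above both tissue points, and the y-organoid point is the highest for Aldoa, Aldoc and P4ha2.

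The 3 oxygen sensing genes of the set were higher on the o-organoid than on the crypt array. Of 8 other HIF subunits and oxygen sensors 1 was at least 2-fold higher on o-organoid, with a median of -0.01. Hif1a, the oxygen-regulated subunit of HIF-1, had -0.31 on o-organoid and -1.98 on y-organoid, against -1.60 on crypt and -1.38 on intestine, so that the difference to crypt was 1.29 for o-organoid and -0.38 for y-organoid. Egln1, the main prolyl hydroxylase of HIF, had -2.30 on o-organoid and -2.63 on y-organoid, against -3.37 on crypt and -3.62 on intestine. Egln3, an isozyme that is itself a HIF target, had 1.54 on o-organoid and 0.75 on y-organoid, against -0.01 on crypt and -0.31 on intestine. All 3 were at least 2-fold higher than crypt on o-organoid, against 8.52% of all genes. On y-organoid 0 of 3 were, against 18.5% of all genes, although the other probe of Egln3 was higher by 1.55 there. With normexp background correction the o-organoid minus crypt difference was 0.91 for Hif1a and 0.31 for Egln1, below 2-fold. HIF-1 protein was not measured.

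The targets of HIF that lie outside glycolysis held the largest differences to crypt among the members as read by their brightest probes. Among 14 measured, 10 were at least 2-fold higher than crypt on o-organoid, against 8.52% of all genes. On y-organoid 9 were, against 18.5% of all genes. The median was 1.76 for o-organoid and 1.93 for y-organoid. On both arrays 0 were lower, against 13.6% of genes for o-organoid and 13.3% for y-organoid. Ero1l, the endoplasmic reticulum oxidase that forms disulfide bonds, had 0.73 on o-organoid and 0.32 on y-organoid, against -3.03 on crypt and -3.80 on intestine. Its probe lies at chr14:45904192-45904251 of build mm9. Ero1l was higher than crypt by 13.5-fold on o-organoid and by 10.16-fold on y-organoid. P4ha2, a subunit of collagen prolyl hydroxylase, had 0.03 on o-organoid and 1.26 on y-organoid, against -3.56 on crypt and -1.80 on intestine, a difference to crypt of 12.07-fold for o-organoid and of 28.31-fold for y-organoid. These sizes depend on the background correction: on the log2 scale the difference of P4ha2 was 3.59 for o-organoid and 4.82 for y-organoid, and with normexp 2.29 and 3.40 for the same arrays. For Ero1l it was 3.76 for o-organoid and 3.35 for y-organoid, and with normexp 2.80 and 2.41.

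P4ha1, the other catalytic subunit, had -3.13 on o-organoid and -2.02 on y-organoid, against -4.16 on crypt and -2.70 on intestine. Its difference to crypt was 1.03 for o-organoid and 2.15 for y-organoid, and the intestine signal lay between the 2 organoid signals. With normexp background correction the difference of P4ha1 was 0.23 for o-organoid and 1.16 for y-organoid. Ankrd37, an ankyrin repeat protein known as a HIF-1 target, had 1.74 on o-organoid and 1.76 on y-organoid, against -0.80 on crypt and -0.59 on intestine, and its difference to crypt was 5.79-fold for o-organoid and 5.88-fold for y-organoid. Adm had -2.08 on o-organoid and -2.39 on y-organoid, against a signal on crypt that was not well above background and -2.35 on intestine, so that it was at least 5.43-fold higher than crypt on o-organoid and at least 4.40-fold higher on y-organoid. With normexp background correction these differences were 0.80 for o-organoid and 0.92 for y-organoid on the log2 scale, below 2-fold. The intestine signal of Adm lay between the 2 organoid signals.

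Ndrg1, a stress-response gene, had 5.37 on o-organoid and 4.56 on y-organoid, against 2.84 on crypt and 2.96 on intestine, a difference to crypt of 5.76-fold for o-organoid and of 3.29-fold for y-organoid. Bnip3, a receptor for the removal of mitochondria, had 3.48 on o-organoid and 3.27 on y-organoid, against 0.91 on crypt and 1.58 on intestine, and was higher than crypt by 5.96-fold on o-organoid and by 5.15-fold on y-organoid. Its relative Bnip3l was higher by 0.97 on o-organoid and by 0.83 on y-organoid. Vegfa, the vascular growth factor, had 2.20 on o-organoid and 2.38 on y-organoid, against 0.12 on crypt and 0.96 on intestine. The difference to crypt was 4.24-fold for o-organoid and 4.82-fold for y-organoid by its brightest probe, and 1.10 for o-organoid and 2.95 for y-organoid on the log2 scale by the other probe.

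The remaining targets varied. Car9, a carbonic anhydrase at the cell surface, had 4.22 on o-organoid and 4.51 on y-organoid, against 3.88 on crypt and 3.32 on intestine. Car12, a related enzyme, was higher than crypt by 0.29 on o-organoid and 0.28 on y-organoid. Ddit4, an inhibitor of mTORC1 signalling, was higher than crypt by 1.44 on o-organoid and by 1.37 on y-organoid. Kdm3a, a histone demethylase, was higher by 1.11 on o-organoid and by 0.51 on y-organoid. Higd1a, a mitochondrial protein induced by hypoxia, differed from crypt by 0.54 on o-organoid and by -0.06 on y-organoid.

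HIF binds the core ACGTG or GCGTG. The windows shown are the 250 bases before to 50 after the annotated start of 7 genes, taken from RefSeq, build GRCm38.p6, and printed 5′ to 3′ along the gene, with the matches to those letters on either strand in capitals. They were chosen to show the 4 targets with the widest gaps between organoid and tissue arrays that have an entry, a glucose transporter, and 2 enzymes that did not differ by 2-fold. CACGTG reads the same on both strands and counts as 2 overlapping matches. Ldha, whose brightest probe was not higher on the organoids, has 7 matches, and Tpi1 has 0.
Ero1a (chr14:45318523-45318822, minus strand): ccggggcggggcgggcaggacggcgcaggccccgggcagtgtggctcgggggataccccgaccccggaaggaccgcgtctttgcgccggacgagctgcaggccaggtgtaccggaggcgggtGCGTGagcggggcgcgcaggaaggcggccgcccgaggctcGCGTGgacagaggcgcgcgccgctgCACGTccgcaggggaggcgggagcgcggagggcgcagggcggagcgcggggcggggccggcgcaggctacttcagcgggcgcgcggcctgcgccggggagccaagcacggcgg
P4ha2 (chr11:54100674-54100973, plus strand): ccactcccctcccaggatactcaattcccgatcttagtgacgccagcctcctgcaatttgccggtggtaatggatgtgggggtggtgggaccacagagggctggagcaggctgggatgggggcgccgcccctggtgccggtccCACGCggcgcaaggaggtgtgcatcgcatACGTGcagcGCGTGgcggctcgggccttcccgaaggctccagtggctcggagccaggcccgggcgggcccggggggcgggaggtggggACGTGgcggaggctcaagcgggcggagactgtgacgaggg
Ankrd37 (chr8:45999801-46000100, minus strand): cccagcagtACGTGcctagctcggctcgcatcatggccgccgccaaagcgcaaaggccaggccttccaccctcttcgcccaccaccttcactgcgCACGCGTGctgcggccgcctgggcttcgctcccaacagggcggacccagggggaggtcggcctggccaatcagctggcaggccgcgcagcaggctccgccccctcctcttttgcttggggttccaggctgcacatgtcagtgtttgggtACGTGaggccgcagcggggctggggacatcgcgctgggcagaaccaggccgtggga
Bnip3 (chr7:138909457-138909756, minus strand): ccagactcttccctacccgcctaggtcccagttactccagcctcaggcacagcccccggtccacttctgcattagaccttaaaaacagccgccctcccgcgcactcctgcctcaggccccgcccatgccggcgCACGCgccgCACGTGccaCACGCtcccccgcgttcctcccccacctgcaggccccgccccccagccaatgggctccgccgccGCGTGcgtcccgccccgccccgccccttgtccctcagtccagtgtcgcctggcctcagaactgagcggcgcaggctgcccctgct
Slc2a1 (chr4:119108495-119108794, plus strand): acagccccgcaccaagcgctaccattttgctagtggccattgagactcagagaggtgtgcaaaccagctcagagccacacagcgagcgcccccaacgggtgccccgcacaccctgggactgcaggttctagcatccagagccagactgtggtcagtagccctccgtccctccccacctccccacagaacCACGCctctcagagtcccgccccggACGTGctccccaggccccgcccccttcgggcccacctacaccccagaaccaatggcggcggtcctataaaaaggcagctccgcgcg
Ldha (chr7:46845554-46845853, plus strand): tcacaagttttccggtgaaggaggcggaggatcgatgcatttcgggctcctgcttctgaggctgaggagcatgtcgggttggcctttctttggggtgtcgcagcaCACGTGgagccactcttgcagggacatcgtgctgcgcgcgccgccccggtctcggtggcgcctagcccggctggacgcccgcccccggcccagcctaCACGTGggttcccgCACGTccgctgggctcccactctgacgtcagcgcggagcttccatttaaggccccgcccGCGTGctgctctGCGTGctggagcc
Tpi1 (chr6:124814109-124814408, minus strand): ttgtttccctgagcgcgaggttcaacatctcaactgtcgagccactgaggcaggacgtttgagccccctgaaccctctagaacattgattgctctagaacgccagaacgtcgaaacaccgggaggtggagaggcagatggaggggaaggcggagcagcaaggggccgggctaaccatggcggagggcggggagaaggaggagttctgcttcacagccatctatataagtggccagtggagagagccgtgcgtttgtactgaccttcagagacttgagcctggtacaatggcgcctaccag

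Promoters were found for 37 of the 39 genes, over 55 windows, and 33 of the 37 genes (89.2%) had at least 1 match. The share over 27025 genes with a promoter was 46.7%, and over 10936 genes on the arrays that were well above background on at least 1 array it was 62.6%. Both letter strings hold a CpG, and the median number of CpG per window was 21 for the members, 19 for those array genes and 7 for all genes, so the shares are not matched for base composition. Nor are they matched for the number of windows, as all 27025 genes had 32851 windows and a match in any window counts. The set was in part chosen as hypoxia response genes, so its share is not an independent result. A match is a string of letters and does not show binding. All 12 of the genes with the 2-fold organoid pattern and an entry had a match, and so had 21 of the 25 other members. The 4 without were Eno2, Tpi1, Gpi1 and Car12.

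The 2 organoids differed from each other in fewer members. Against y-organoid, 1 of 37 members was at least 2-fold higher on the o-organoid array and 5 were lower, where 8.1% of 17306 genes were higher and 19.3% lower. At 4-fold 0 members were higher and 0 lower, where 0.907% of genes were higher and 3.02% lower. The median difference was 0.09 for the members and -0.15 for all genes. The member that was higher was Hif1a, by 3.17-fold. The 5 lower ones were Hk1, Aldoa, Aldoc, P4ha1 and P4ha2, with differences between -1.25 and -1.01. These calls follow the scaling: in the authors' deposited value table, where the median of all genes for this pair lies higher by 0.58, 7 of 37 members were at least 2-fold higher on o-organoid and 0 were lower, where 25.22% of all genes were higher and 6.4% lower. Hif1a differed by 0.97 between o-organoid and y-organoid with normexp background correction and by 0.70 with the median of its probes, in each case less than 2-fold.

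Between crypt and whole intestine the shares of members past 2-fold were near those over all genes. At 2-fold 3 of 38 members (7.89%) were higher on crypt, where 6.83% of 18213 genes were. Lower on crypt were 4 members (10.5%), where 14.3% of genes were. The median difference was 0.21 for the members and 0.06 for all genes. Car12 was higher on crypt by 3.30-fold, Ddit4 by 2.64-fold and Pfkl by 1.02 on the log2 scale. P4ha1 and P4ha2 were lower on crypt, with differences of -1.47 and -1.76. Adm was at least 4.53-fold lower on crypt, and Eno2, with a signal of -2.25 on intestine and none well above background on o-organoid, y-organoid and crypt, was at least 4.84-fold lower. These 2 were the members past 4-fold, where 7.34% of genes were lower by 4-fold. In the deposited value table, where the median of all genes for this pair lies higher by 0.74, 16 of 38 members were at least 2-fold higher on crypt, where 37.47% of all genes were. With normexp background correction the crypt minus intestine difference was -0.84 for Adm, -0.65 for P4ha1, -0.90 for P4ha2 and -1.03 for Eno2, so that only Eno2 of these 4 stayed 2-fold lower. Markers of other cell types move with these lower values: 6 of 6 stromal and 5 of 5 smooth muscle markers were lower on crypt by 2-fold or more, and the summed log2 signal of the stromal list was -2.91 on crypt, with all 6 dim, against 5.66 on intestine. Their part in the result was not tested.

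**Figure D4:**
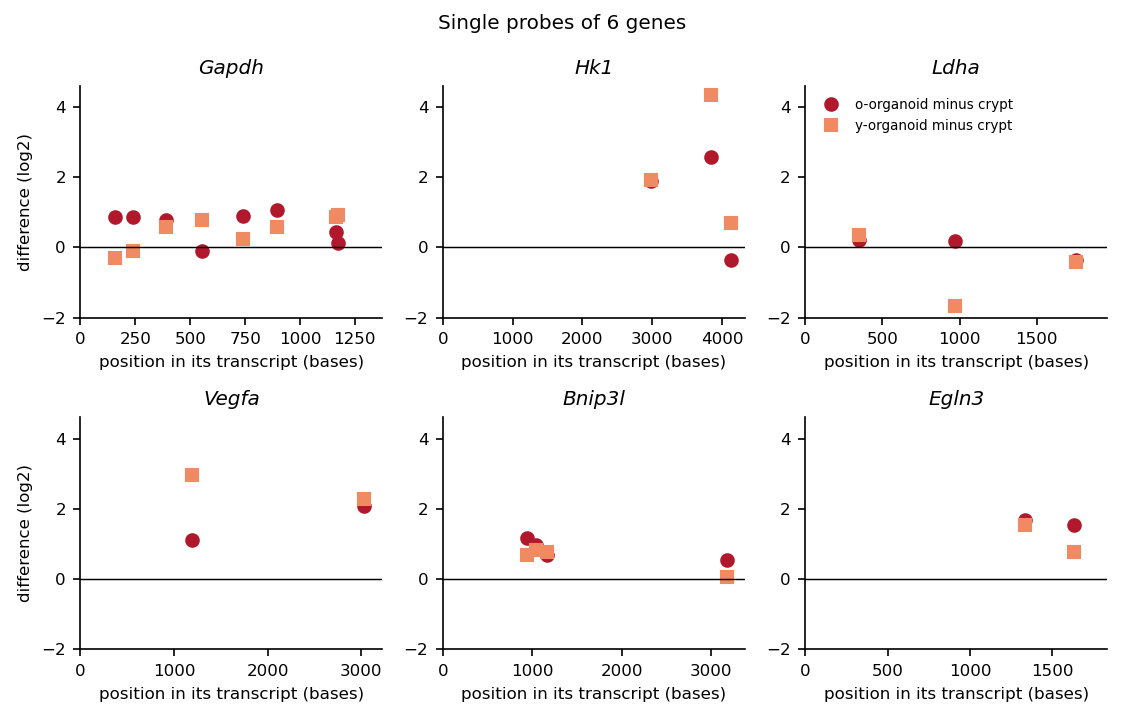
Differences of the single probes of 6 members, on the log2 scale, against the position of the probe in its transcript in bases, with circles for o-organoid minus crypt and squares for y-organoid minus crypt. The probes of Hk1 spread between -0.37 and 2.58 for o-organoid and between 0.69 and 4.34 for y-organoid, while the 4 probes of Bnip3l lie between 0.05 and 1.16.

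Of the 12 members with more than 1 probe above background on all arrays, 4 had every probe at least 2-fold higher than crypt on o-organoid and 3 on y-organoid. No like count over all genes is given here, so the counts by probe describe these members only. The probes had opposite signs for Gapdh, Hk1 and Ldha in o-organoid minus crypt, and for Gapdh, Ldha and Pfkp in y-organoid minus crypt. For Gapdh in o-organoid minus crypt the only negative value, -0.11, came from the probe placed on chromosome 7. Over 1588 pairs of probes on the same transcript at least 500 bases apart, the downstream probe minus the upstream probe had a median of -0.20 for o-organoid minus crypt and of -0.40 for y-organoid minus crypt. The part of probe position in the results was not tested.

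Genes of neighbouring pathways, from lists chosen with earlier results known, had medians against crypt between -2.28 and 0.49. Over all genes 8.52% were at least 2-fold higher and 13.6% lower than crypt on o-organoid, and 18.5% higher and 13.3% lower on y-organoid. Of 12 measured other glycolytic isozymes and regulators, 0 were at least 2-fold higher and 4 lower than crypt on o-organoid, with a median of -0.32, and of 13 measured on y-organoid, 2 were higher and 4 lower, with a median of 0.39. Slc2a2, the glucose exporter of absorptive cells, was 12.06-fold lower than crypt on o-organoid and 9.87-fold lower on y-organoid. Slc2a5, the fructose transporter, was 5.57-fold lower on o-organoid and 8.14-fold lower on y-organoid. Ldhb, the other subunit of lactate dehydrogenase, was dim on crypt and was at least 6.25-fold higher on y-organoid than on crypt, or 1.34 on the log2 scale with normexp.

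Gluconeogenesis, the reverse route that makes glucose, was mostly lower on the organoid arrays: 3 of 5 genes were at least 2-fold lower and 1 higher than crypt on each, with a median of -1.92 for o-organoid and of -2.28 for y-organoid. Pck1, the cytosolic phosphoenolpyruvate carboxykinase, was 53.14-fold lower than crypt on o-organoid and at least 148.39-fold lower on y-organoid. G6pc, which releases free glucose, was 15.46-fold lower on o-organoid and 22.40-fold lower on y-organoid. Pck2, the mitochondrial form of the carboxykinase, was the higher one, by 5.51-fold on o-organoid and by 3.44-fold on y-organoid. With normexp background correction the log2 difference was -4.94 for o-organoid and -5.11 for y-organoid for Pck1, -3.28 for o-organoid and -3.23 for y-organoid for G6pc, and 1.01 for o-organoid and 0.90 for y-organoid for Pck2.

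Among 11 genes for the entry of pyruvate into mitochondria, 1 was higher and 2 were lower on o-organoid, and 1 was higher and 3 were lower on y-organoid, with a median of -0.63 for o-organoid and of -0.46 for y-organoid. Pdk4, a pyruvate dehydrogenase kinase induced in fasting, was at least 39.11-fold lower than crypt on o-organoid and at least 22.44-fold lower on y-organoid, opposite to Pdk1, and with normexp its log2 difference was -3.07 for o-organoid and -2.21 for y-organoid. In the tricarboxylic acid cycle 0 of 12 genes were higher on either organoid array, 1 was lower on o-organoid and 4 were lower on y-organoid, with a median of -0.54 for o-organoid and of -0.90 for y-organoid. The pentose phosphate pathway had 2 of 7 genes higher on o-organoid, G6pdx by 1.08 and Pgd by 1.01, and 0 of 7 on y-organoid. Of 8 glycogen genes 2 were higher and 1 lower on o-organoid, and 2 were higher and 2 lower on y-organoid, and Gys1, the glycogen synthase of most tissues, was higher by 1.37 on o-organoid and by 2.05 on y-organoid.

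Among other HIF targets, 5 of 21 were at least 2-fold higher and 3 lower than crypt on o-organoid, and 6 of 19 were higher and 4 lower on y-organoid, with a median of 0.49 for o-organoid and of 0.23 for y-organoid. Stc2, a secreted glycoprotein, had signals of 2.58 on o-organoid and 2.73 on y-organoid, against none well above background on crypt and -1.79 on intestine, and was at least 137.69-fold higher than crypt on o-organoid and at least 152.92-fold higher on y-organoid. Ak4, a mitochondrial adenylate kinase, was at least 42.20-fold higher on o-organoid and at least 63.06-fold higher on y-organoid. Hmox1, the heme oxygenase, was 18.47-fold higher on o-organoid and 2.59-fold higher on y-organoid. Nt5e, the nucleotidase at the cell surface that forms adenosine, was at least 16.53-fold lower on o-organoid and differed by -0.72 on y-organoid. With normexp background correction the log2 difference was 5.18 for o-organoid and 5.23 for y-organoid for Stc2, 3.52 for o-organoid and 3.99 for y-organoid for Ak4, and for o-organoid 3.55 for Hmox1 and -2.17 for Nt5e, so these sizes and bounds hold for the authors' background subtraction only. The median of the probes gave 3.27 for o-organoid and 4.32 for y-organoid for Ak4, and a smaller difference for Hmox1 on o-organoid than its brightest probe did. Of the other HIF subunits and oxygen sensors 1 of 8 on o-organoid and 1 of 7 on y-organoid was higher and 0 were lower. The higher one, the subunit gene Hif3a, differed from crypt by 2.68 on o-organoid and by 3.32 on y-organoid with its brightest probe, by 1.31 on o-organoid and 1.88 on y-organoid with normexp, and by -0.15 on o-organoid and -0.28 on y-organoid with the median of its probes.

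**Figure D5:**
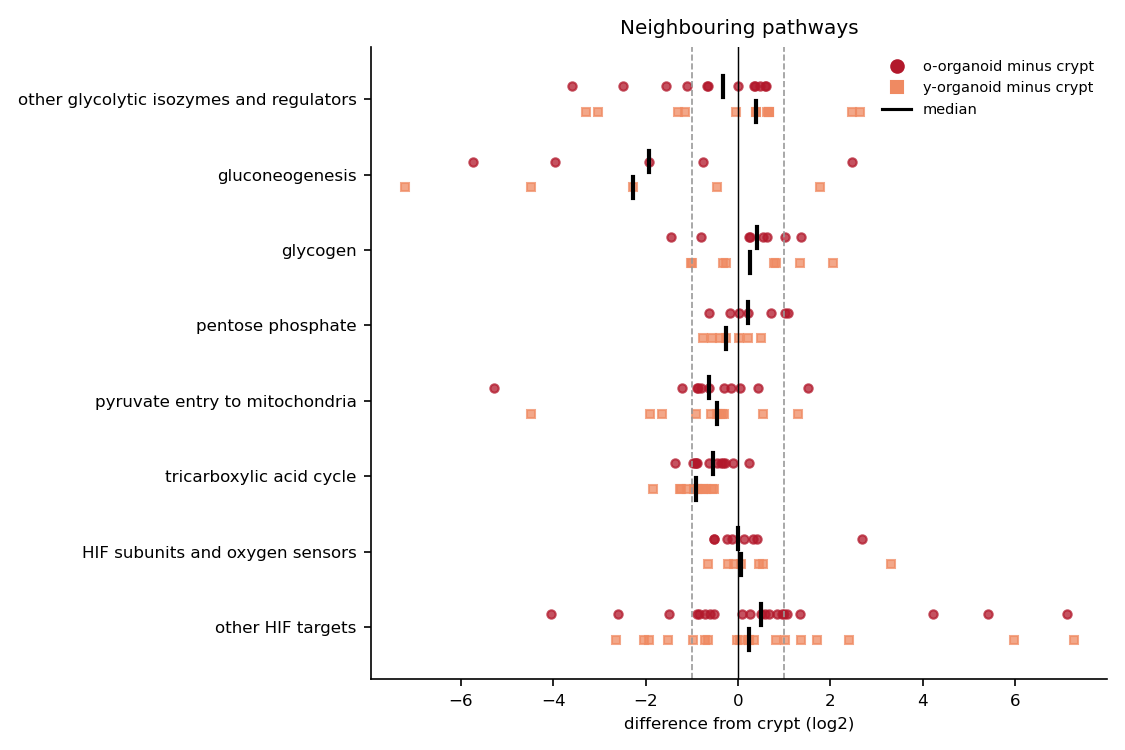
Differences of the genes of each companion list between an organoid array and the crypt array, on the log2 scale, with bounds plotted at their bound and a bar at the list's median. The genes of gluconeogenesis and of the tricarboxylic acid cycle lie mostly below 0, with a median of -1.92 for gluconeogenesis and of -0.54 for the cycle on o-organoid.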

How the data were processed

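Total RNA of 4 mouse samples, 1 array each, was labelled with Cy3 and hybridised to 1-colour Agilent arrays, per the labels' protocols. Spot intensity, on a linear scale, is as deposited by the authors: per the file headers, Agilent Feature Extraction 10.7.3.1 wrote the scanner files after subtracting background, with probe coordinates in build mm9. The authors also deposited a value table, found to hold a ratio of each processed intensity to 1 constant per array. Its tool was not given in the sources used.

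From these, control and outlier spots were left out, log2 intensity was taken minus each array's 75th percentile, spots of a probe were averaged, and the brightest probe stood for a gene. A gene was counted in a pair of arrays when it was well above background on at least 1 of them. Where it was not well above background on the other, the difference is a bound, taken against that array's lowest signal that counts as well above background, or the probe's own if higher. Differences of at least 2-fold were counted, with no test, since each group has 1 array. Signals are limited in precision by the number of arrays.

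The members, roles and gene lists were chosen with earlier results of these data known. Signals on all arrays are printed for members that differ by at least 4-fold in any of the 4 comparisons and for a fixed group of glycolytic and oxygen sensing genes. For the other members differences are printed, and from each list up to 4 genes with the largest organoid minus crypt difference. Alternatives were normexp background correction with an offset of 50 and quantile normalization (limma 3.58.1 in R 4.3.3), the deposited table, the median over probes, no filter on dim probes, a filter on both arrays and a 4-fold threshold. Leaving out probes placed on another chromosome than their gene was added after seeing the data. Calculations used Python 3.11.15 with pandas 2.3.3 and were tested on simulated data. Promoters and gene names came from RefSeq tables of GRCm38.p6.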

Additional observations from a re-analysis of the deposited data

Results flagged for a closer look

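Hk1, the housekeeping hexokinase, had opposite signs on the organoid arrays, with a difference to crypt of -0.37 for o-organoid and of 0.69 for y-organoid. Hif1a, the oxygen-regulated subunit of HIF-1, also had opposite signs, with a difference to crypt of 1.29 for o-organoid and of -0.38 for y-organoid. Both were picked out because the organoid arrays moved in opposite directions from the same crypt array, each by more than 2 technical SDs of repeated spots at all signals. That SD is smaller than the spread of dim spots, which was 0.236 on y-organoid and 0.181 on crypt, and with normexp background correction Hif1a differed from crypt by -0.06 on y-organoid, so its sign there is not firm. The difference between the organoids was not tested, since each has 1 array. The other 2 probes of Hk1 were higher than crypt on both organoid arrays, and with the median of its probes, 1 of which was well above background on 1 array only, Hif1a differed from crypt by 1.02 on y-organoid.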

How the results depend on the processing

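No paired analysis was possible because each group has 1 array and the labels give no replicate numbers that groups share. Of 100 recomputed medians and counts 78 stayed close, which means a median that moved by less than the technical SD of its pair or a count that moved by no more than 1.5 times, and no median changed sign. With the deposited value table the median difference was 0.51 for y-organoid minus crypt, 0.72 for o-organoid minus y-organoid and 0.95 for crypt minus intestine, 16 members were higher on crypt than on intestine, and against y-organoid 7 were higher and 0 lower on o-organoid. By construction that table scales each array to its median, which shifts all genes by -0.50, 0.58 and 0.74 in those pairs. With normexp the y-organoid minus crypt median was 0.86, 0 members were higher and 2 lower on o-organoid than on y-organoid, and 1 was lower on crypt than on intestine. Quantile normalization left 2 members lower on o-organoid than on y-organoid. The median over probes gave 2 members lower on y-organoid than on crypt, and the filter on both arrays left 2 lower on crypt than on intestine, as fewer genes then count. At 4-fold 9 members were higher than crypt on each organoid array, 0 were lower, 2 stood above both tissues on both organoids, 0 were higher or lower on o-organoid than on y-organoid, and 0 were higher and 2 lower on crypt than on intestine. Except where its construction is given, the cause was not tested. Over the 5 settings of scaling and probe choice, 18 of the 22 members higher on o-organoid and 13 of the 19 on y-organoid stayed at least 2-fold above crypt in all. Against crypt the sign flipped in at least 1 setting for 3 members on o-organoid (Hk1, Gapdh and Ldha) and for 5 on y-organoid (Pfkp, Pgam1, Hif1a, Car12 and Higd1a). Adm and Eno2 are bounds set by background. With normexp Egln1 and P4ha1, low in signal though well above background, were no longer 2-fold higher than crypt on o-organoid.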
